A study of Mus musculus with 37 samples.

Results

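Gene expression in the tailbud of control mouse embryos was compared between embryos with 8 or 9 somites and embryos with 6 or 7 somites, which is the earliest developmental step that the series covers. The embryos were chosen by their labels alone (genotype Smchd1wt and a somite number of 6, 7, 8 or 9), and they are 14 of the 37 embryos of the series. The earlier group held 8 embryos, 4 with 6 somites and 4 with 7 somites, of which 5 were female and 3 male. The later group held 6 embryos, 3 with 8 somites and 3 with 9 somites, of which 3 were female and 3 male. All 4 embryos with 6 somites were female. Each library came from the tailbud of a single embryo.

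The 14 embryos carried the genotype Smchd1 fl/+, a loxP-flanked maternal allele and an intact paternal allele of Smchd1, a chromatin protein of gene silencing, and are functionally wild-type. They were F1 hybrids of C57BL/6 Smchd1 fl/fl mothers without the MMTV-Cre transgene and Castaneus (Cast) Smchd1 +/+ fathers, collected at embryonic day 8 to 8.5. A further 11 embryos with 6 to 9 somites, called Smchd1matΔ, were Smchd1 del/+ F1 hybrids of the same strains whose mothers carried the MMTV-Cre transgene, so that the oocyte lacked Smchd1. They were used to look at the same step in embryos that the main comparison did not use. The tissue was cut below the last segmented somite, so it should hold the presomitic mesoderm and the progenitors behind it but no formed somites. Which litter or dissection day an embryo came from was not given in the sources used here, so litter and stage cannot be told apart.

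Somites are blocks of mesoderm that bud off in pairs from the presomitic mesoderm, and their number dates an embryo. The tailbud feeds this process from neuromesodermal progenitors, which are kept by Wnt and fibroblast growth factor (FGF) signals and make spinal cord and paraxial mesoderm. A Notch-driven oscillator sets the pace of segmentation, retinoic acid from the formed somites opposes FGF signalling, and Hox genes switch on in the order of their place in each cluster, giving the new tissue its position along the body axis.

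Markers of the tailbud were present in each dissected piece. Each of the 10 tailbud markers was counted in all 14 embryos, from 19.4 CPM (counts per 1e6 counts, scaled by the TMM method) for the lowest value of Hes7 to 432 CPM for the highest value of Cdx2, and their summed level was 1110 to 1429 CPM in the earlier and 1018 to 1316 CPM in the later embryos. Markers of somite differentiation summed to 16.8 to 27.9 CPM in the earlier and 18.03 to 37.2 CPM in the later embryos. Endoderm and blood markers varied far more between embryos and, with vessel markers, are given beside the results they touch. Total counts per library, in units of 1e6, were 3.06 to 15.5 (median 10.02) in the earlier and 9.66 to 80.6 (median 12.5) in the later embryos. The shallowest library was replicate 2 at 7 somites and the deepest replicate 1 at 9 somites, so genes near the detection limit are better measured in the later group.

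To ask which genes differ between the windows, all 14567 genes that passed the filter on low counts were tested with sex as a covariate. No gene passed the adjusted threshold of 0.05 by edgeR's quasi-likelihood test, where the smallest adjusted p-value was 0.109. At the unadjusted level of 0.05 there were 1009 genes (6.93%), of which 536 (3.68%) were higher and 473 (3.25%) lower in the later embryos. Such genes are called nominally higher or lower below, and none of them passed the adjusted test. Their differences were small, with median log2 fold changes of 0.40 for the nominally higher and -0.35 for the nominally lower genes. Of the 1009 genes, 51 were higher and 37 lower by more than 1 on the log2 scale. The median log2 fold change over all genes tested was -0.0017.

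Other fits of the same counts passed more genes. The Wald test of DESeq2 called 48 genes (28 higher and 20 lower), limma voom with sample weights called 10, a slope on somite number called 14 and female embryos alone gave 28. Leaving out the shallowest library, replicate 2 at 7 somites, gave 17 genes, leaving out replicate 1 at 8 somites gave 11 and leaving out replicate 3 at 8 somites gave 2. Over 26 alternative fits, 67 genes passed at least once, and all 67 were among the 1009 nominal genes. With the 7-somite embryos as the sole earlier group 337 of 14684 genes were nominal. With male embryos alone (3 against 3) 236 of 14549 were, with no adjusted call in either. Leaving out replicate 3 at 9 somites left 631 of 14713. Nominal genes were fewer throughout in these fits, so lower counts of list members in them, given below, need not be a trait of a list. On simulated counts of the same depth and gene-wise spread, the main test recovered 86% of genes that differed by 1 and 99% of those that differed by 2 on the log2 scale. The changed genes were drawn only from genes above a floor of expected counts, so these shares do not cover genes near the detection limit. No sex effect and no outlying embryo was simulated.

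The genes with the smallest p-values were spread over several functions. All p-values printed below are adjusted over all genes tested (edgeR's quasi-likelihood test), values after ± are SDs over the 8 earlier and the 6 later embryos, and coordinates are those of the deposited table (GRCm38).

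Igfbp5 (ENSMUSG00000026185, chromosome 1, 72857932 to 72874884), a secreted protein that binds insulin-like growth factors, was at 29.6 to 48.9 CPM (median 39.4) in the earlier and 54.1 to 96.1 CPM (median 61.6) in the later embryos. Its means were 39.5 ± 5.5 and 67.1 ± 14.9 CPM (log2 fold change 0.77, SE 0.12, adjusted p = 0.109). The highest earlier embryo lay below the lowest later embryo. Fbn2 (ENSMUSG00000024598, chromosome 18, 58008623 to 58210487), which encodes the microfibril protein fibrillin-2, was at 52.8 to 63.5 CPM (median 57.5) in the earlier and 67.9 to 117 CPM (median 91.4) in the later embryos. Its means were 58.3 ± 4.33 and 89.1 ± 18.8 CPM (log2 fold change 0.62, SE 0.11, adjusted p = 0.109), and here too the windows did not overlap. Such a gap between the windows was found for 11 of the 14567 genes (0.0755%). With this many embryos and genes, a random order of the embryos would give a count near that. The gap alone therefore singles out no gene.

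The other leading genes on the higher side were less abundant. 2610528A11Rik (ENSMUSG00000096001, chromosome 14, 37102140 to 37114022) was at 3.78 to 9.2 CPM (median 6.51) in the earlier and 5.66 to 19.6 CPM (median 15) in the later embryos, with means of 6.23 ± 1.75 and 13.9 ± 4.92 CPM (log2 fold change 1.18, SE 0.24, adjusted p = 0.193). Replicate 1 at 8 somites was the single later embryo inside the earlier range. Islr (ENSMUSG00000037206, chromosome 9, 58156268 to 58204306), an extracellular leucine-rich repeat protein, had means of 0.865 ± 0.469 and 3.13 ± 1.57 CPM (log2 fold change 1.94, SE 0.40, adjusted p = 0.193). Within the later window its mean was 1.72 CPM at 8 and 4.55 CPM at 9 somites. Its annotated region includes exons of Islr2 on the same strand. Sost (ENSMUSG00000001494, chromosome 11, 101962458 to 101967015), an inhibitor of the Wnt co-receptors, was at 1.39 to 5.92 CPM (median 1.72) in the earlier and 3.8 to 8 CPM (median 5.98) in the later embryos (log2 fold change 1.36, SE 0.29, adjusted p = 0.193). The highest earlier value of Sost, 5.92 CPM, was that of the shallowest library.

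On the lower side the smallest p-values belonged to Fgf15 and Tcfl5. Fgf15 (ENSMUSG00000031073, chromosome 7, 144896531 to 144900953), an FGF ligand, was at 20.2 to 29 CPM (median 25.6) in the earlier and 13.5 to 19.6 CPM (median 15.4) in the later embryos. Its means were 24.6 ± 3.02 and 15.8 ± 2.14 CPM (log2 fold change -0.66, SE 0.12, adjusted p = 0.109), and the windows did not overlap. Tcfl5 (ENSMUSG00000038932, chromosome 2, 180621956 to 180642708), a basic helix-loop-helix transcription factor, was at 19.1 to 33.8 CPM (median 28.9) in the earlier and 14.7 to 19.9 CPM (median 17.6) in the later embryos, with means of 27.9 ± 4.4 and 17.5 ± 2.02 CPM (log2 fold change -0.66, SE 0.12, adjusted p = 0.109). Both have exons that overlap a gene on the other strand (Gm26793 and Gm39119 for Fgf15, Col9a3 for Tcfl5), and whether the counts used strand was not stated. Of the other genes named here, Axin2, Bmp5, Cfc1, Col4a1, Col4a2, Cyp51, Dll1, Evx1, Fbn2, Fst, Hes7, Hmgcs1, Hoxa7, Ina, Jun, Kcnk3, Lin28a, Nkx1-2, Notch1, Notum, Nrarp, Plagl1, Sfrp2, Shh and Wnt5a also have exons that overlap a gene on the other strand, and Col3a1, Hoxa9, Hoxc10, Hoxd10, Hoxd3, Igf2 and Islr overlap one on the same strand, so that counts of these genes are less certain.

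Etv4 (ENSMUSG00000017724, chromosome 11, 101769742 to 101785371), a transcription factor switched on by FGF signalling, had means of 147 ± 18.5 and 109 ± 9.18 CPM (log2 fold change -0.44, SE 0.09, adjusted p = 0.193). Nefm (ENSMUSG00000022054, chromosome 14, 68082590 to 68124846), a neurofilament subunit, was at 13.2 to 25.6 CPM (median 21.8) in the earlier and 9.74 to 18.1 CPM (median 11) in the later embryos (log2 fold change -0.83, SE 0.16, adjusted p = 0.193). Its lowest earlier value again came from the shallowest library, inside the later range. Grsf1 (ENSMUSG00000044221, chromosome 5, 88659448 to 88676171), an RNA-binding protein, was the most abundant of the leading genes, at 675 ± 104 and 460.2 ± 65.6 CPM (log2 fold change -0.56, SE 0.11, adjusted p = 0.193).

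**Figure D1:**
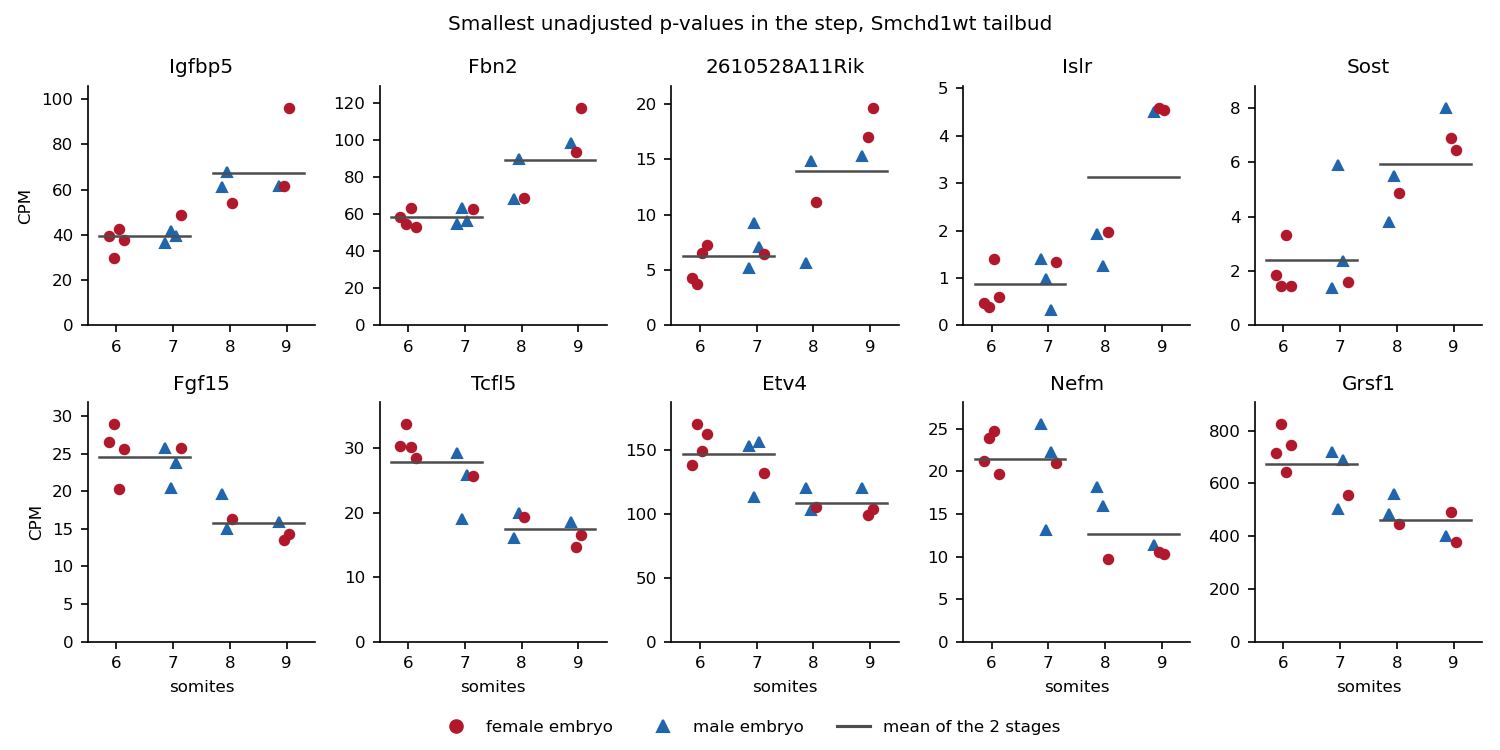
CPM of the 5 genes with the smallest unadjusted p-values in each direction, in each Smchd1wt embryo against its somite number, with females as circles, males as triangles and the mean of each window as a line; the top row holds genes with higher and the bottom row genes with lower means at 8 or 9 somites. The 6 later embryos lie above all 8 earlier embryos for Igfbp5 and Fbn2 and below them for Fgf15, while the other 7 genes overlap between the windows, among them Islr, whose 9-somite embryos all lie near 4.5 CPM.

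The 11 genes without overlap, a list chosen after the values were seen, also included S1pr1 and Esam on the higher side. S1pr1, a sphingosine-1-phosphate receptor of the vessel wall, was at 5.73 ± 1.68 and 9.76 ± 0.961 CPM (log2 fold change 0.73, SE 0.18, adjusted p = 0.292), and Esam, an adhesion molecule of endothelial cells, at 8.57 ± 1.476 and 12.1 ± 1.37 CPM (log2 fold change 0.47, SE 0.14, adjusted p = 0.429). On the lower side, beside Fgf15, were Arsi, Snrpn, Lrrc42, Lrp11, Adprm and Psmg2. Of these Arsi, a sulfatase gene, had the largest difference (4.77 ± 0.874 and 2.51 ± 0.521 CPM, log2 fold change -0.95, SE 0.20), and the other 5 had log2 fold changes from -0.33 (Adprm) to -0.18 (Psmg2).

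Markers of the primitive streak and of neuromesodermal progenitors were mostly on the lower side. Of the 12 listed genes tested, 6 were nominally lower and none nominally higher, against 3.25% and 3.68% of all genes, and the list's median log2 fold change was -0.24. Nkx1-2, a homeobox gene of the progenitor zone, was at 163 to 228 CPM (median 207) in the earlier and 136 to 181 CPM (median 166) in the later embryos (log2 fold change -0.33, SE 0.09, adjusted p = 0.34). T (Brachyury), the transcription factor that defines the streak and its mesoderm, was at 246 ± 37.9 and 210.1 ± 32.1 CPM (log2 fold change -0.24, SE 0.11, adjusted p = 0.707), Evx1 at 113 ± 14.3 and 96.2 ± 9.15 CPM (log2 fold change -0.24, SE 0.09, adjusted p = 0.564) and Wnt3a, the Wnt ligand that keeps the progenitors, at 71.5 ± 9.93 and 56.9 ± 11.4 CPM (log2 fold change -0.33, SE 0.12, adjusted p = 0.564). For these 4 genes the ranges of the windows overlapped. Grsf1 had the smallest p-value of the list.

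Fst encodes follistatin, an activin antagonist, and was the remaining nominally lower member. It was at 5.92 to 181 CPM (median 35.1) in the earlier and 7.8 to 23.7 CPM (median 10.1) in the later embryos (log2 fold change -1.97, SE 0.55, adjusted p = 0.405). Replicate 1 at 6 somites stood at 181 CPM, with the next earlier embryo at 49.9 CPM, and the shallowest library at 5.92 CPM lay below all 6 later embryos.

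Genes of the presomitic mesoderm gave values on both sides of 0. Tbx6 and Msgn1, transcription factors that specify it, were at 37.7 ± 9.33 and 37.8 ± 7.21 CPM (log2 fold change -0.02, SE 0.16, adjusted p = 0.989) and at 50.6 ± 14.1 and 44.4 ± 5.68 CPM (log2 fold change -0.20, SE 0.17, adjusted p = 0.842). Of the 9 listed genes tested, 1 was nominally higher and 2 nominally lower, with a median of -0.02. Epha1, an Eph receptor on that list, was at 59.2 to 99.3 CPM (median 92.9) in the earlier and 50.5 to 78.9 CPM (median 60.3) in the later embryos (log2 fold change -0.55, SE 0.12, adjusted p = 0.193). Its exons overlap Zyx on the other strand, and it passed the adjusted test in 5 of the 26 alternative fits.

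Components of Nodal signalling and the pluripotency factor Pou5f1 were nominally lower. Nodal signals through the co-receptor Cfc1 and the transcription factor Foxh1, and induces its own inhibitor Lefty2. These 3 genes were nominally lower, of 7 listed genes tested. Lefty2 was at 0.252 to 11.8 CPM (median 3.44) in the earlier and 0.104 to 0.99 CPM (median 0.56) in the later embryos, with means of 4.12 ± 3.62 and 0.533 ± 0.32 CPM (log2 fold change -3.03, SE 0.65, adjusted p = 0.193). The overlap came from replicates 2 and 3 at 7 somites, at 0.66 and 0.25 CPM, whereas the other 6 earlier embryos were at 3.11 to 11.8 CPM. Cfc1 was at 5.92 to 13.9 CPM (median 8.18) in the earlier and 0.748 to 7.02 CPM (median 4.01) in the later embryos (log2 fold change -1.37, SE 0.34, adjusted p = 0.311), and Foxh1 at 19.9 ± 5.18 and 11.1 ± 4.87 CPM (log2 fold change -0.89, SE 0.25, adjusted p = 0.396). A further 5 listed genes, Nodal and Lefty1 among them, did not pass the filter on low counts, and the list's median was 0.12, opposite in sign to its nominal members.

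Pou5f1, which encodes OCT4, was at 19.7 to 37.7 CPM (median 29.7) in the earlier and 5.13 to 24.9 CPM (median 12.2) in the later embryos. Its means were 29.6 ± 6.32 and 12.8 ± 6.79 CPM (log2 fold change -1.25, SE 0.27, adjusted p = 0.193). Replicate 1 at 8 somites was at 24.9 CPM and the other 5 later embryos at 5.13 to 14.4 CPM. The exons of Pou5f1 overlap Gm19553 on the other strand. Among the 11 germ cell and pluripotency genes tested, Pou5f1 was 1 of 2 nominally lower members and 1 member was nominally higher.

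The genes that time the change from trunk to tail formation differed among themselves. Cdx1, a caudal homeobox gene, was at 117 ± 19.97 and 70.7 ± 26.1 CPM (log2 fold change -0.76, SE 0.19, adjusted p = 0.319), while its paralogues were at 372 ± 32.9 and 332 ± 38.7 CPM for Cdx2 (log2 fold change -0.17, SE 0.08, adjusted p = 0.73) and 667 ± 93.6 and 598 ± 72 CPM for Cdx4 (log2 fold change -0.16, SE 0.10, adjusted p = 0.779). Nr6a1, a nuclear receptor of trunk development, was at 765 ± 145 and 591 ± 106 CPM (log2 fold change -0.37, SE 0.14, adjusted p = 0.589). Gdf11, the ligand that starts tail formation, was at 57.6 ± 14.4 and 78.6 ± 24.6 CPM (log2 fold change 0.45, SE 0.19, adjusted p = 0.675) and Isl1, which it acts through in the hindlimb field, at 11.9 ± 5.32 and 18 ± 4.41 CPM (log2 fold change 0.60, SE 0.27, adjusted p = 0.704). Lin28a, an RNA-binding protein of early progenitors, was at 1390 ± 46.6 and 1335 ± 73.1 CPM (log2 fold change -0.07, SE 0.05, adjusted p = 0.842). In all, 3 of the 9 listed genes were nominally lower (Cdx1, Nr6a1 and Pou5f1) and 2 nominally higher (Gdf11 and Isl1). In male embryos alone the log2 fold change of Gdf11 was -0.05. Neither of the nominally higher genes held at that level without replicate 1 at 6 somites, replicate 1 at 7 somites, replicate 2 at 8 somites, or replicate 2 or 3 at 9 somites.

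FGF and Wnt signalling had nominally lower genes in part of each pathway. Of 16 FGF ligands, inhibitors and response genes tested, 4 were nominally lower and none nominally higher. Beside Fgf15 and Etv4 these were the ligands Fgf4 (13.2 ± 4.1 and 8.77 ± 1.29 CPM, log2 fold change -0.61, SE 0.20) and Fgf3 (41.5 ± 6.07 and 33.8 ± 4.18 CPM, log2 fold change -0.30, SE 0.11). Fgf8 and Fgf17, ligands of the progenitor zone, were at 33.8 ± 8.93 and 35.5 ± 10.4 CPM and at 45.8 ± 7.43 and 49 ± 9.65 CPM, with log2 fold changes of 0.06 (SE 0.19) and 0.10 (SE 0.13). The median of the list was 0.07.

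Among 14 Wnt feedback and target genes 4 were nominally lower and 1 nominally higher, with a median of -0.02. The lower genes were Sp5, a transcription factor induced by Wnt (44.1 ± 7.99 and 29.6 ± 8.99 CPM, log2 fold change -0.59, SE 0.17, adjusted p = 0.435), the secreted inhibitor Notum (49.9 ± 5.43 and 38.6 ± 7.99 CPM, log2 fold change -0.41, SE 0.11, adjusted p = 0.396), Nkd1 (116 ± 11.6 and 99.5 ± 12 CPM, log2 fold change -0.24, SE 0.08, adjusted p = 0.555) and Axin2 (157 ± 19.6 and 138 ± 9.4 CPM, log2 fold change -0.20, SE 0.09, adjusted p = 0.676), all of which restrain the pathway or read it out. In male embryos alone none of the 14 genes was nominally lower. Nkd2, a paralogue of Nkd1, was at 11.1 ± 1.21 and 13.8 ± 3.33 CPM (log2 fold change 0.32, SE 0.14, adjusted p = 0.685). Of 16 ligands, receptors and secreted modulators, 2 were nominally lower, Wnt3a and Wnt8a, and 3 nominally higher, Wnt5a, Fzd2 and Sfrp2. Wnt8a was at 12.2 ± 5.91 and 5.25 ± 1.66 CPM (log2 fold change -1.13, SE 0.31, adjusted p = 0.384). Wnt5a, the ligand of axis elongation, was at 170.3 ± 22.5 and 221 ± 50.9 CPM (log2 fold change 0.38, SE 0.12, adjusted p = 0.507) and the receptor Fzd2 at 37.4 ± 4.53 and 48.1 ± 15 CPM (log2 fold change 0.36, SE 0.15, adjusted p = 0.675).

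Notch genes lay on the higher side. Of 13 genes of the Notch segmentation clock tested, 6 were nominally higher and none nominally lower (median log2 fold change 0.29), and 12 of the 13 fold changes were positive. Nrarp, a target and inhibitor of Notch, was at 33.5 to 63.6 CPM (median 44.6) in the earlier and 35.7 to 119 CPM (median 74.5) in the later embryos (log2 fold change 0.71, SE 0.22, adjusted p = 0.47). The target genes Hey2 (7.2 ± 1.35 and 10.3 ± 2.19 CPM, log2 fold change 0.50, SE 0.17, adjusted p = 0.529), Hes1 (37.5 ± 6.07 and 47.9 ± 7.29 CPM, log2 fold change 0.34, SE 0.12, adjusted p = 0.564) and Hey1 (32.3 ± 6.53 and 41.3 ± 10.7 CPM, log2 fold change 0.34, SE 0.16, adjusted p = 0.72) are transcriptional repressors. The co-activator Maml3 was at 34.5 ± 4.29 and 41.6 ± 5.8 CPM (log2 fold change 0.29, SE 0.10, adjusted p = 0.538) and the receptor Notch1 at 45.3 ± 6.55 and 57.5 ± 17.3 CPM (log2 fold change 0.35, SE 0.16, adjusted p = 0.713). Each of these 6 genes overlapped between the windows. In male embryos alone none of the 13 genes was nominally higher, with the 7-somite embryos as the sole earlier group 1 was and with library depth as a covariate 3 were. Over all genes 236, 337 and 1133 were nominal in these fits, compared with 1009 in the main fit.

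Hes7, Lfng and Dll1 were not among the 6 nominally higher Notch genes. Hes7, the repressor that drives the oscillation, was at 31.1 ± 7.36 and 32.3 ± 11.1 CPM (log2 fold change 0.06, SE 0.20, adjusted p = 0.972), Lfng, which modifies the receptor, at 18.2 ± 4.06 and 22 ± 9.93 CPM (log2 fold change 0.28, SE 0.25, adjusted p = 0.853) and the ligand Dll1 at 81.7 ± 16.8 and 102 ± 30.2 CPM (log2 fold change 0.32, SE 0.17, adjusted p = 0.747). Their SDs at 8 or 9 somites were larger than at 6 or 7. Endothelial cells also use several of the 6 genes, Hey1, Hey2 and Notch1 among them, and endothelial markers were on the higher side too (below). Their part in the result was not tested.

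The Hey2 promoter is shown as an example of a Notch target in the list, with the letters TTCCCA, the reverse complement of the core motif TGGGAA of the Notch partner RBPJ, in capitals. The sequence is that of the 250 bases before the RefSeq start (GRCm38.p6, chr10:30842784-30843033, minus strand), read 5′ to 3′ toward the gene.

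Hey2: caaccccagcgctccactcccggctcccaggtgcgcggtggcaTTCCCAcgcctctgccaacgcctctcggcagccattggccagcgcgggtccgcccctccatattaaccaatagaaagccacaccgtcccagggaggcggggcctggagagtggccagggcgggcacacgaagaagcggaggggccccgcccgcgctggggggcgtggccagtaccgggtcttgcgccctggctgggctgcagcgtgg

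The match begins 207 bases before the start. On either strand TGGGAA was found in 5 of the 10 listed Notch genes with a promoter sequence (Hes5, Hes7, Hey2, Lfng and Maml3) and in 2500 of the 10656 tested genes with one (23.5%). Of the 5 genes, Hey2 and Maml3 were nominally higher and the other 3 were not.

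Retinoic acid genes were divided. Of 16 tested, 2 were nominally higher and both break retinoic acid down. Cyp26a1, the degrading enzyme of the tailbud, was at 81.8 to 141 CPM (median 96.8) in the earlier and 105 to 193 CPM (median 132) in the later embryos (log2 fold change 0.40, SE 0.16, adjusted p = 0.628), and Cyp26c1 at 0.688 ± 0.359 and 1.51 ± 0.666 CPM (log2 fold change 1.05, SE 0.37, adjusted p = 0.564). Among the 2 nominally lower genes was Rxrg, a retinoid receptor (7.2 ± 2.7 and 3.11 ± 1.73 CPM, log2 fold change -1.18, SE 0.35, adjusted p = 0.445). Aldh1a2, the enzyme that makes retinoic acid in somites, was at 13.1 ± 3.78 and 12.9 ± 3.63 CPM (log2 fold change 0.04, SE 0.21, adjusted p = 0.982). In male embryos alone the log2 fold change of Cyp26a1 was -0.03. Of 16 genes of BMP signalling 2 were nominally higher, Id2 (127 ± 12.2 and 149 ± 18.6 CPM, log2 fold change 0.23, SE 0.09, adjusted p = 0.608) and the antagonist Grem1 (2.09 ± 1.78 and 4.41 ± 1.98 CPM, log2 fold change 1.08, SE 0.42, adjusted p = 0.608), and 1 was nominally lower, the ligand Bmp5 (22.6 ± 3.85 and 18.1 ± 2.86 CPM, log2 fold change -0.33, SE 0.13, adjusted p = 0.608). Shh, the signal of the notochord and floor plate, was at 5.75 to 17.3 CPM (median 10.6) in the earlier and 8.31 to 24.6 CPM (median 19.7) in the later embryos (log2 fold change 0.84, SE 0.27, adjusted p = 0.5), and was the 1 nominal gene of 11 node and notochord genes tested.

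Hox genes were examined gene by gene, because their order of activation is the clock of the axis. No Hox gene passed the adjusted test. Of 12 anterior genes (paralogue groups 1 to 4) 1 was nominally higher and 2 nominally lower, of 15 central genes (groups 5 to 9) 5 were nominally higher and none nominally lower, and of the 7 posterior genes (groups 10 to 13) that passed the filter 2 were nominally higher and none nominally lower. The medians of the log2 fold changes were -0.08, 0.21 and 0.58 in that order.

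Levels between Hox genes were compared with the deposited log2 RPKM values, which are corrected for transcript length. Hoxb9 had the highest level at both windows, 6.98 ± 0.16 in the earlier and 6.96 ± 0.22 in the later embryos, with a log2 fold change in counts of -0.03 (SE 0.10). Hoxa7 and Hoxc8 came next, at 5.86 ± 0.19 and 5.80 ± 0.22 in the earlier and 5.91 ± 0.26 and 6.09 ± 0.37 in the later embryos, less than their SDs apart. At the other end Hoxc12 and Hoxd12 had 0 counts in all 14 embryos, so that their listed log2 RPKM values measure nothing, and Hoxb13 had 0 counts in 9 of the 14 embryos.

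Among the nominally lower Hox genes was Hoxb1, the first gene of its cluster, at 48.3 to 88.5 CPM (median 78.1) in the earlier and 44.8 to 71.2 CPM (median 60.6) in the later embryos (log2 fold change -0.31, SE 0.13, adjusted p = 0.646). Hoxd3 was the nominally higher gene of the anterior groups, at 15.1 to 25.4 CPM (median 19.5) in the earlier and 23.5 to 30.2 CPM (median 27.1) in the later embryos (log2 fold change 0.41, SE 0.10, adjusted p = 0.319). On the log2 RPKM scale its later embryos were at 2.49 to 2.79 and its earlier embryos at 1.78 to 2.58, so that the windows overlapped.

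Among the central genes, Hoxa9 was at 63.8 to 137 CPM (median 71.4) in the earlier and 75.4 to 184 CPM (median 134) in the later embryos (log2 fold change 0.68, SE 0.20, adjusted p = 0.435), Hoxd8 at 25.6 ± 6.37 and 39 ± 11.7 CPM (log2 fold change 0.61, SE 0.19, adjusted p = 0.456) and Hoxc9 at 18.8 ± 5.55 and 31.4 ± 15.2 CPM (log2 fold change 0.76, SE 0.26, adjusted p = 0.554). Hoxc6 (40.5 ± 11.6 and 53.9 ± 13.2 CPM, log2 fold change 0.41, SE 0.17, adjusted p = 0.638) and Hoxc8 (164 ± 26.8 and 204 ± 51.1 CPM, log2 fold change 0.31, SE 0.14, adjusted p = 0.713) were the remaining nominally higher members. The mean log2 RPKM of Hoxc9 was 2.69, 3.03, 2.93 and 4.09 at 6, 7, 8 and 9 somites. That of Hoxa9 was 3.69, 3.98, 4.18 and 4.79. The count of 5 became 2 without replicate 3 and 3 without replicate 2 at 9 somites, and 0 in male embryos alone or with the 7-somite embryos as the sole earlier group.

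The posterior genes were near the detection limit. Hoxd13 was at 0.871 to 5.63 CPM (median 3.83) in the earlier and 2.94 to 9.99 CPM (median 8.38) in the later embryos (log2 fold change 1.08, SE 0.34, adjusted p = 0.489), Hoxd10 at 0 to 3 CPM (median 1.35) in the earlier and 1.76 to 4.17 CPM (median 2.8) in the later embryos (log2 fold change 0.95, SE 0.43, adjusted p = 0.707) and Hoxc10 at 3.49 ± 2.24 and 6.21 ± 3.35 CPM (log2 fold change 0.82, SE 0.49, adjusted p = 0.777). Hoxd10 and Hoxc10 each had 0 counts in 1 embryo. The count of 2 nominally higher posterior genes became 1 in 9 of the 14 fits that left out an embryo.

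By cluster, all 8 tested Hoxd genes had positive log2 fold changes (median 0.46), as did 5 of 6 Hoxc genes (median 0.36), 5 of 11 Hoxa genes (median -0.01) and 2 of 9 Hoxb genes (median -0.11). By paralogue group the medians were -0.13, -0.02, -0.03, -0.01, 0.41, 0.08, 0.31, 0.48, 0.82 and 0.08 for groups 2 to 11 in that order and 0.83 for group 13, each over 2 to 4 genes. Neighbouring Hox genes share regulation and their antisense transcripts may share reads, so these medians are descriptions over genes that are not independent.

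**Figure D2:**
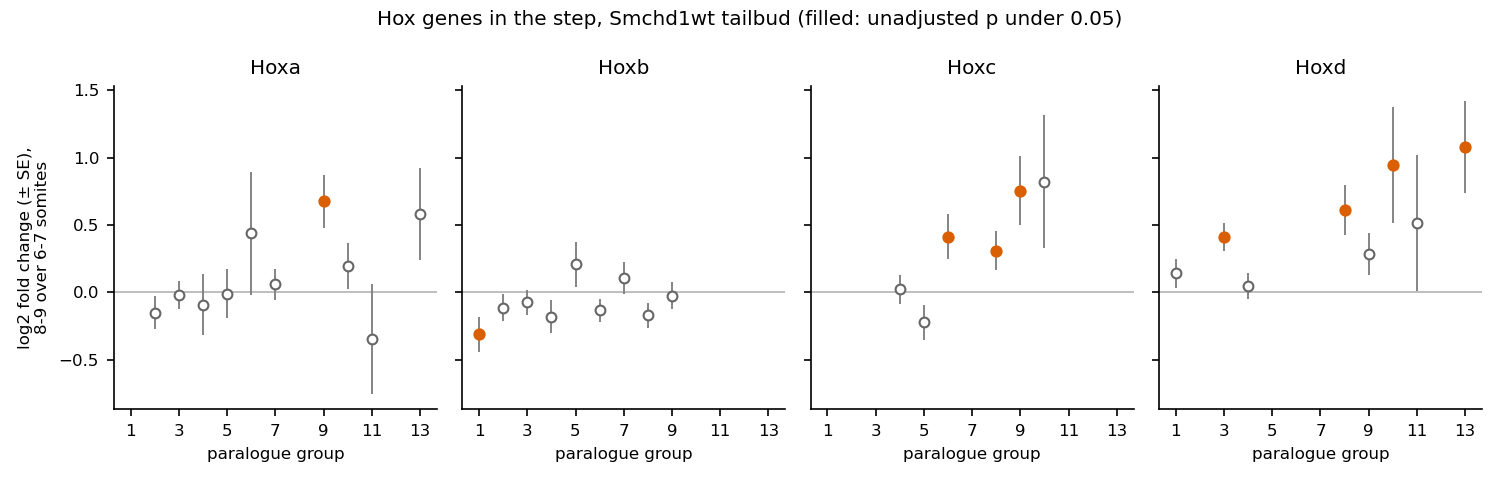
Log2 fold change of the tested Hox genes reported here between 8 or 9 and 6 or 7 somites in Smchd1wt embryos, with its SE as a bar, against paralogue group in the 4 clusters; filled points had an unadjusted p-value under 0.05 and none passed the adjusted test. Hoxb1 lies below 0, groups 8 to 13 of Hoxd lie above 0, and no Hoxb gene of groups 2 to 9 is filled.

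Vessel markers lay on the higher side. All 18 endothelial genes tested had positive log2 fold changes, and 14 were nominally higher, with a median of 0.47. Cdh5, the cadherin of endothelial junctions, was at 18.1 to 35 CPM (median 28.8) in the earlier and 33.1 to 53.9 CPM (median 42.4) in the later embryos (log2 fold change 0.59, SE 0.14, adjusted p = 0.284). Cldn5, a tight junction protein, was at 3.81 ± 2 and 7.89 ± 2.09 CPM (log2 fold change 1.0, SE 0.31, adjusted p = 0.457), and Tek, the angiopoietin receptor, at 25.3 ± 5.58 and 34.9 ± 6.63 CPM (log2 fold change 0.47, SE 0.14, adjusted p = 0.443). Kdr, the VEGF receptor of endothelium and its mesodermal precursors, was at 149.6 ± 32.2 and 188 ± 11.7 CPM (log2 fold change 0.33, SE 0.12, adjusted p = 0.57).

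Emcn, a surface sialomucin of later endothelium, was at 0 to 1.65 CPM (median 0.37) in the earlier and 1.29 to 4.12 CPM (median 2.63) in the later embryos (log2 fold change 1.84, SE 0.52, adjusted p = 0.413). The earlier embryos included 1 with 0 counts. The summed level of the 18 genes was 325 to 573 CPM (median 423) in the earlier and 519 to 621 CPM (median 579) in the later embryos, with overlap from replicate 4 at 7 somites (573 CPM). In a dissected tissue, more cells of a type and more RNA of these genes per cell cannot be told apart. With male embryos alone 5 of the 18 genes were nominally higher, with 7-somite embryos as the sole earlier group 4 and with library depth as a covariate 9.

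Genes of primitive erythroid cells, the embryo's first red blood cells, were nominally higher in 8 of 17 cases and nominally lower in none, with a median of 1.06. Of the 17 log2 fold changes 15 were positive and 2 negative. The list also holds Hbb-bs, an adult-type globin that does not mark primitive cells. It was at 2.61 to 79.2 CPM in the earlier and 1.35 to 30.5 CPM in the later embryos. Its highest value was that of replicate 2 at 6 somites, where the embryonic globin Hbb-bh1 was at 28.3 CPM. Klf1 and Gata1, transcription factors of the lineage, were at 0 to 2.63 CPM (median 0.292) in the earlier and 0.645 to 7.15 CPM (median 2.62) in the later embryos (log2 fold change 2.78, SE 0.63, adjusted p = 0.25) and at 0.808 ± 1.55 and 4.31 ± 4.61 CPM (log2 fold change 2.89, SE 0.83, adjusted p = 0.424). Tal1, which acts in blood and endothelium, was at 28.1 ± 11.9 and 42.7 ± 9.49 CPM (log2 fold change 0.62, SE 0.22, adjusted p = 0.558). The embryonic globin Hbb-bh1 was at 5.7 to 818 CPM (median 57.5) in the earlier and 33 to 1095 CPM (median 382) in the later embryos (log2 fold change 2.26, SE 0.96, adjusted p = 0.669). Globin genes of near-identical sequence may share reads.

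The erythroid signal varied widely within each window. Its summed level, with Hbb-bs included, was 107 to 1670 CPM (median 203) in the earlier and 198 to 2015 CPM (median 870) in the later embryos. Replicate 2 at 7 somites, the shallowest library, was at 1670 CPM while the other 7 earlier embryos were at 107 to 243 CPM, and replicate 1 at 8 somites was at 198 CPM while the other 5 later embryos were at 604 to 2015 CPM. In male embryos alone no erythroid gene was nominally higher, and the log2 fold change of Hbb-bh1 was -0.33.

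Gut and visceral endoderm markers, whose source in the piece was not tested, spread even more widely. Their summed level was 749 to 4075 CPM (median 1969) in the earlier and 215 to 5628 CPM (median 1495) in the later embryos, and was highest in replicate 1 at 8 somites and lowest in replicate 3 at 9 somites. Of 22 genes 1 was nominally higher and none nominally lower, although 20 had negative log2 fold changes (median -0.24). How far these cells carry other results was not tested.

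**Figure D3:**
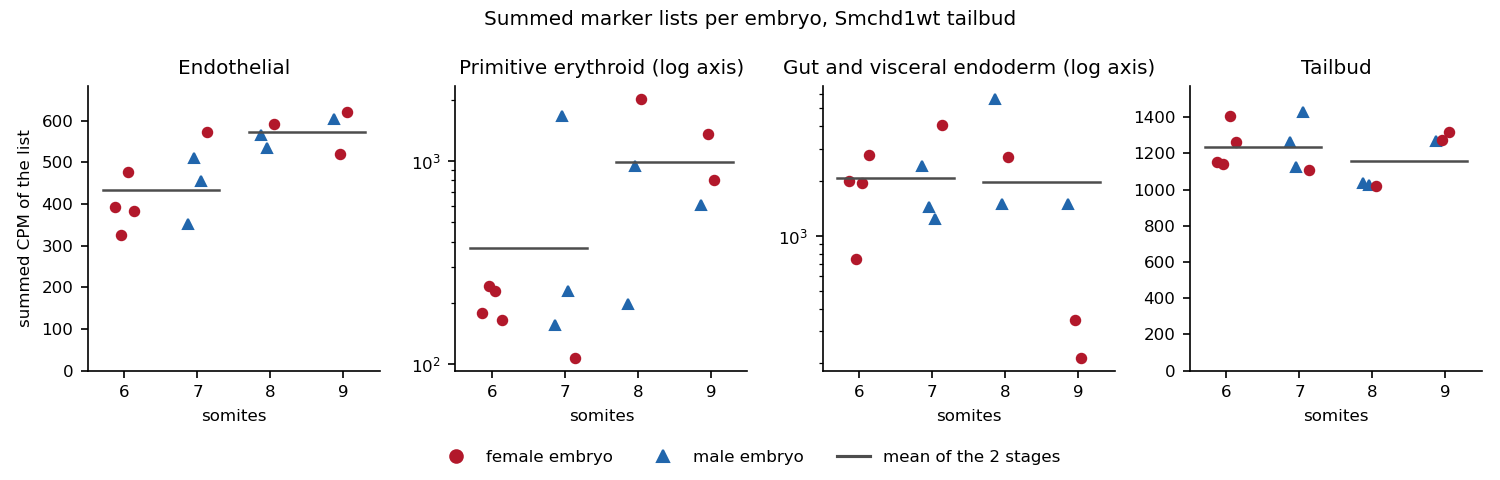
Summed CPM of the endothelial (18 genes), primitive erythroid (17 genes), gut and visceral endoderm (22 genes) and tailbud (10 genes) lists in each Smchd1wt embryo against its somite number, with females as circles, males as triangles and window means as lines; the erythroid and endoderm panels have log axes. Endothelial sums are 519 to 621 CPM in the 6 later embryos, erythroid sums are above 600 CPM in 5 of the 6 later and 1 of the 8 earlier embryos, and endoderm sums reach from 215 to 5628 CPM within the later window.

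Collagen genes, which build the extracellular matrix, were nominally higher in 4 of 16 cases and nominally lower in none (median 0.19). Col3a1 was at 21.9 to 35.5 CPM (median 27.7) in the earlier and 31.2 to 105 CPM (median 48.5) in the later embryos (log2 fold change 0.93, SE 0.21, adjusted p = 0.234), where replicate 1 at 8 somites stood at 105 CPM and the next later embryo at 53.3 CPM. Col11a1 was at 5.84 ± 1.51 and 9.34 ± 1.75 CPM (log2 fold change 0.71, SE 0.16, adjusted p = 0.255) and Col5a2 at 29.5 ± 3.93 and 42.6 ± 11.5 CPM (log2 fold change 0.56, SE 0.13, adjusted p = 0.284). Postn, a matrix protein of mesenchyme and the allantois, was at 9.53 to 29.4 CPM (median 13.8) in the earlier and 9.54 to 73.4 CPM (median 42.7) in the later embryos (log2 fold change 1.25, SE 0.32, adjusted p = 0.338), with 4 later embryos above and 2 inside the earlier range.

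Replicate 1 at 6 somites stood apart on other matrix genes and on Sox7, a choice of genes made with their values known. Col4a1 and Col4a2, chains of basement membrane collagen, were at 1261 and 527 CPM in it and at 172 to 288 and 63.8 to 125 CPM in the other 7 earlier embryos. The laminin chain Lama1 was at 639.9 CPM in it against 38.1 to 59.6 CPM, the matrix protein Sparc at 557 against 74.6 to 134 CPM and the transcription factor Sox7 at 25.2 against 2.61 to 11.5 CPM. Fst, counted above among the nominally lower streak genes, was also highest in this embryo (181 CPM, next 49.9). Which cells these values came from was not tested. The summed endothelial level of this embryo was 393 CPM, within the range of the earlier embryos. Without this embryo 3 of the 16 collagen genes and 11 of the 18 endothelial genes were nominally higher.

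Genes of cholesterol synthesis were on the higher side too. Of 24 genes of the pathway and its control 13 were nominally higher and none nominally lower, with a median log2 fold change of 0.27. Hmgcs1, an enzyme at the start of the pathway, was at 142 to 216 CPM (median 179) in the earlier and 136 to 348 CPM (median 250.5) in the later embryos (log2 fold change 0.46, SE 0.17, adjusted p = 0.57). Cyp51, which removes a methyl group from lanosterol, was at 88.8 ± 9.19 and 126 ± 38.5 CPM (log2 fold change 0.51, SE 0.15, adjusted p = 0.435). Stard4, a sterol carrier, was at 49.1 to 65.1 CPM (median 54.8) in the earlier and 60.8 to 77.7 CPM (median 68.5) in the later embryos (log2 fold change 0.28, SE 0.08, adjusted p = 0.384).

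The SDs of Hmgcs1 and Cyp51 were larger in the later than in the earlier embryos. The count was 3 of 24 without replicate 3 and 7 without replicate 2 at 9 somites, both of them females. It was 0 in male embryos alone and with the 7-somite embryos as the sole earlier group. Over all genes the nominal count was 631 without replicate 3 and 769 without replicate 2 at 9 somites. It was 236 in male embryos alone and 337 with the 7-somite embryos as the sole earlier group.

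Genes of this pathway share control by SREBP2, which binds sterol regulatory elements. The 250 bases before the RefSeq start of Hmgcs1 (GRCm38.p6, chr13:119690101-119690350, plus strand) are shown because they hold the only match among the listed genes with a promoter sequence, with the match to TCACNCCAC in capitals.

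Hmgcs1: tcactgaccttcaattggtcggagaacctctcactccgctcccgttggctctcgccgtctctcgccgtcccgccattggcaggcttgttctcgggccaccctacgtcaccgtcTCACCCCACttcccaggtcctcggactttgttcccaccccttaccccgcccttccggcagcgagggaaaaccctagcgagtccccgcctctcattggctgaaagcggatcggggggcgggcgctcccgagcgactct

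The match begins 137 bases before the start. The letters, searched on both strands, were found in 1 of the 16 cholesterol genes with a promoter sequence (6.25%) and in 136 of all 10656 tested genes with one (1.28%).

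Neurofilament and cytoskeleton genes were on the lower side, with 4 of 8 nominally lower and none nominally higher (median -0.50). Nefl was at 13.4 to 17.6 CPM (median 16.5) in the earlier and 7.84 to 16 CPM (median 10.2) in the later embryos (log2 fold change -0.59, SE 0.16, adjusted p = 0.34), and overlaps Nefm on the opposite strand, so that the counts of the pair may share reads. Beside Nefm and Nefl these were the tubulin Tubb3 (20.1 ± 3.06 and 14.7 ± 2.77 CPM, log2 fold change -0.46, SE 0.14, adjusted p = 0.445) and the intermediate filament gene Ina (6.78 ± 2.2 and 4.67 ± 0.703 CPM, log2 fold change -0.53, SE 0.22, adjusted p = 0.644). The neural tube list itself had 1 nominally higher and 1 nominally lower gene of 10 tested, the latter Pax2 (6.67 ± 1.72 and 4.39 ± 1.38 CPM, log2 fold change -0.69, SE 0.20, adjusted p = 0.427), and the other 12 listed genes, Sox1 and the proneural factors Neurog1 and Neurog2 among them, did not pass the filter. In male embryos alone none of the 8 neurofilament and cytoskeleton genes was nominally lower.

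Imprinted growth regulators were nominally higher in 6 of 18 cases and nominally lower in 1 (median 0.14). Plagl1, a zinc finger transcription factor of the imprinted network, was at 17.6 to 35.7 CPM (median 25.8) in the earlier and 20.5 to 59.1 CPM (median 44.6) in the later embryos (log2 fold change 0.76, SE 0.19, adjusted p = 0.292). Igf2, the growth factor, was at 1027 to 1809 CPM (median 1377) in the earlier and 1622 to 2083 CPM (median 1882) in the later embryos (log2 fold change 0.41, SE 0.12, adjusted p = 0.396), and its clearance receptor Igf2r at 307 ± 48.4 and 389.5 ± 39.4 CPM (log2 fold change 0.34, SE 0.10, adjusted p = 0.453). Snrpn, the nominally lower member, was at 109 ± 7.21 and 89.7 ± 7.38 CPM (log2 fold change -0.29, SE 0.07, adjusted p = 0.292) and shares exons with Snurf on the same strand. Without replicate 3 at 9 somites 3 of the 18 genes were nominally higher, and in male embryos alone 1 was.

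The remaining lists are given by their counts, against a background of 3.68% higher and 3.25% lower. Of 23 cell cycle genes none was nominally higher and 1 nominally lower (median -0.01), and of 17 ephrins and Eph receptors none and 1 (Epha1). Of 27 Polycomb genes 2 were nominally higher and 1 nominally lower, and the number higher was between 0 (without replicate 1 at 6 somites, among others) and 6 (without replicate 1 at 8 somites) when single embryos were left out. Of 11 mitochondrially encoded genes none was nominal. Among 19 targets of p53, 1 was nominally higher, Btg2 (21.6 ± 3.59 and 32.8 ± 11 CPM, log2 fold change 0.60, SE 0.16, adjusted p = 0.34), and 3 nominally lower, Pmaip1 among them (19.7 ± 3.46 and 14.5 ± 3.71 CPM, log2 fold change -0.43, SE 0.15, adjusted p = 0.564). The number lower was 1 without replicate 2, 3 or 4 at 6, replicate 2 at 8 or replicate 3 at 9 somites. The immediate early gene Jun was at 8.96 ± 2.45 and 13.8 ± 2.81 CPM (log2 fold change 0.62, SE 0.18, adjusted p = 0.443) and was the 1 nominal gene of 15 tested. Among 18 genes of glycolysis and glucose uptake 2 were nominally higher, led by Pdk1, which turns pyruvate away from the mitochondrion. Pdk1 was at 57.3 to 95.3 CPM (median 69.7) in the earlier and 65.4 to 125 CPM (median 107) in the later embryos (log2 fold change 0.55, SE 0.13, adjusted p = 0.284). The count of that list was 5 without replicate 1 and 4 without replicate 2 at 8 somites, and 1 without replicate 1 or replicate 3 at 9 somites.

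**Figure D4:**
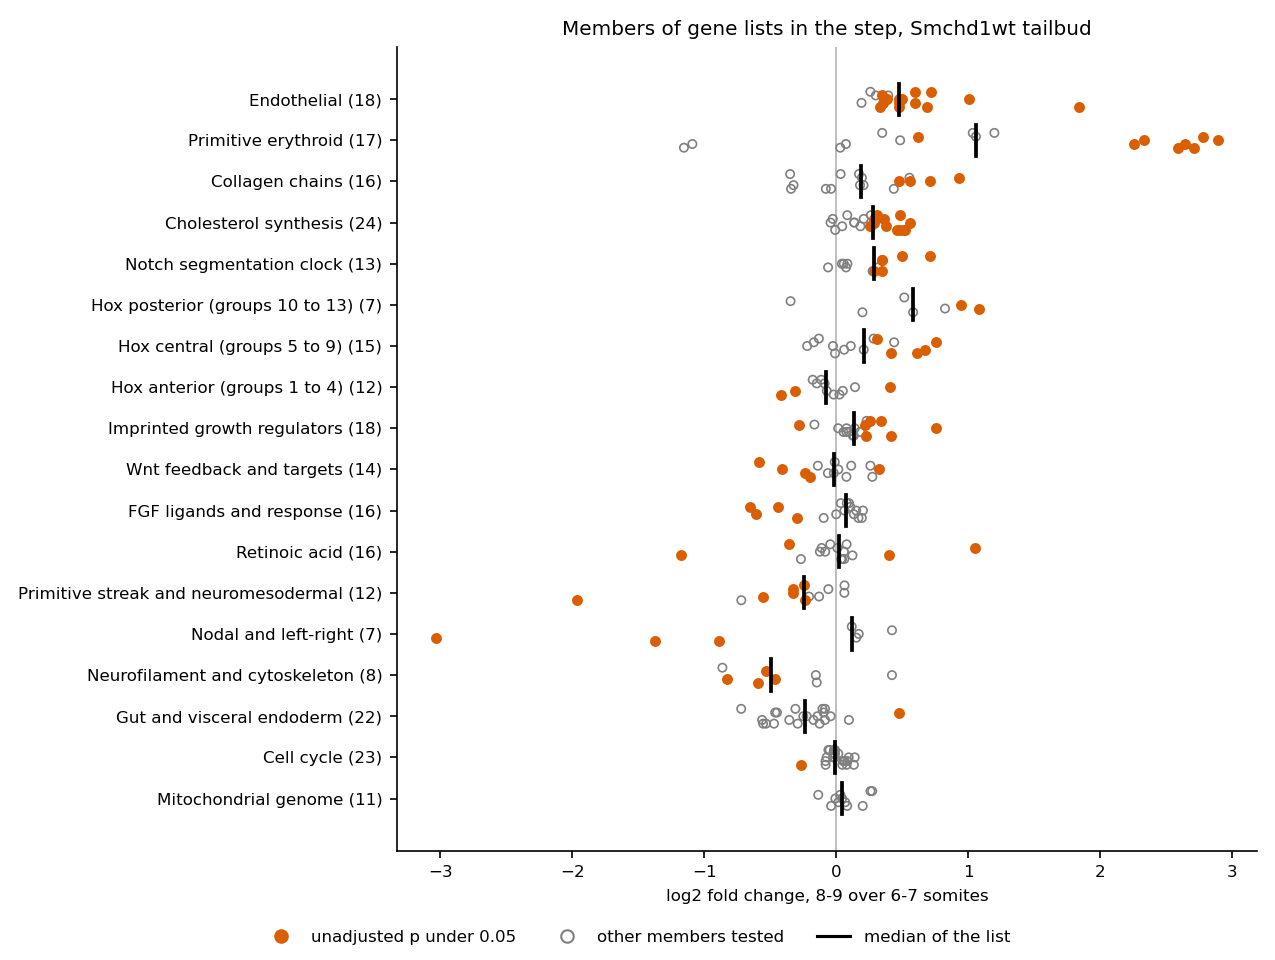
Log2 fold change between 8 or 9 and 6 or 7 somites of each tested member of 18 gene lists in Smchd1wt embryos, with the number of members in parentheses; filled points had an unadjusted p-value under 0.05, black bars are list medians and the grey line is the median of all genes. All 18 endothelial genes lie right of 0, 7 erythroid genes lie beyond 2, Lefty2 lies at -3.03, and cell cycle and mitochondrial genes cluster around 0.

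To see whether the step looked alike in other embryos, it was fitted in the 11 Smchd1matΔ embryos with 6 to 9 somites (7 earlier and 4 later, all 4 later ones female), which share no sample with the comparison above. Values after ± are here SDs over 7 and 4 embryos. Of 14823 genes tested 4 passed the adjusted threshold (0.027%), 1 in the positive (0.00675%) and 3 in the negative direction (0.0202%). At the unadjusted level 932 genes (6.29%) were nominal, 522 higher (3.52%) and 410 lower (2.77%). Cyp26a1 rose (92.3 ± 26.5 and 173 ± 50.5 CPM, log2 fold change 1.12, SE 0.16, adjusted p = 0.0401 by edgeR's quasi-likelihood test). Lefty2 (10.5 ± 11.7 and 0.404 ± 0.152 CPM, log2 fold change -5.13, adjusted p = 0.0481), Fgfbp3, a carrier of FGFs (13.2 ± 7 and 2.73 ± 1.45 CPM, log2 fold change -2.62, adjusted p = 0.0336), and Kcnk3, a potassium channel (5.64 ± 2.88 and 1.05 ± 0.552 CPM, log2 fold change -2.73, adjusted p = 0.0401), fell. In Smchd1wt embryos the log2 fold changes of Cyp26a1, Lefty2, Fgfbp3 and Kcnk3 were 0.40, -3.03, -1.19 and -0.52. Fgfbp3 was there at 3.65 to 15.4 CPM with 6, 0.986 to 3.70 CPM with 7 and 1.24 to 3.67 CPM with 8 or 9 somites.

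These 4 calls changed when single libraries were left out. Replicates 1 and 2 at 6 somites of the Smchd1matΔ embryos carried 2.77% and 1.82% of their counts at a ribosomal RNA locus, and replicate 3 at 6 somites had a total of 0.916 in units of 1e6 counts. The number of calls was 0 without the pair rich in ribosomal RNA counts, 0 without a sex term, and between 0 and 16 when single embryos were left out. It was 0 without replicate 1 or 2 at 6, replicate 3 at 7, replicate 1 at 8 and replicate 1 or 2 at 9 somites, and 16 without replicate 2 at 8 somites.

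Of 999 genes that were nominal in Smchd1wt and tested in both genotypes, 825 (82.6%) had the same sign in Smchd1matΔ, compared with 62.2% of all 14458 genes. In Smchd1matΔ 228 of them were nominal with the same sign and 1 with the opposite sign, Reln, which was singled out after its values were seen. Without the pair rich in ribosomal RNA counts the same sign was found for 766 of 992 genes (77.2%), compared with 57.0% of all genes, and 165 and 3 genes were nominal with the same and the opposite sign. Across all genes the log2 fold changes of the genotypes had a Pearson correlation of 0.376 over 14458 genes, which are not independent replicates.

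**Figure D5:**
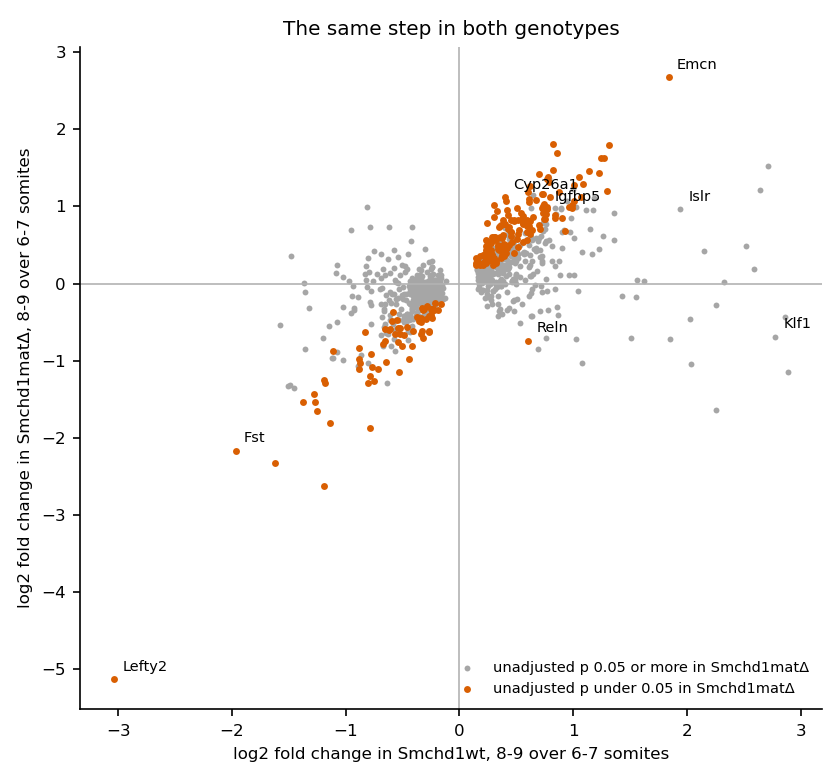
Log2 fold change between 8 or 9 and 6 or 7 somites in Smchd1matΔ embryos against that in Smchd1wt embryos, for the 999 genes with an unadjusted p-value under 0.05 in Smchd1wt that were tested in both; orange points also had an unadjusted p-value under 0.05 in Smchd1matΔ. Of the orange points 228 lie in the quadrants of equal sign and 1 (Reln) does not, Lefty2 lies at -3.03 and -5.13, and genes such as Klf1 lie to the right without a matching value in Smchd1matΔ.

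The lists lined up in part. Side by side for Smchd1wt and Smchd1matΔ, the median log2 fold changes were 0.47 and 0.57 for endothelial, 0.27 and 0.32 for cholesterol, 0.21 and 0.51 for central Hox and -0.50 and -0.44 for neuronal cytoskeleton genes. In Smchd1matΔ 9 of 18 endothelial and 12 of 24 cholesterol genes were nominally higher and none nominally lower. For primitive streak and neuromesodermal genes the medians were -0.24 and -0.11. In Smchd1matΔ 4 of those 12 genes were nominally lower and 1 nominally higher, and 5 had positive log2 fold changes. Igfbp5 (37.2 ± 7.66 and 66.3 ± 29.3 CPM, log2 fold change 0.96, adjusted p = 0.322), Fgf15 (26.4 ± 3.69 and 17.1 ± 5.07 CPM, log2 fold change -0.58, adjusted p = 0.542) and Pou5f1 (41.7 ± 25.4 and 15.9 ± 5.53 CPM, log2 fold change -1.65, adjusted p = 0.151) had the sign seen in Smchd1wt.

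Other values did not line up. Side by side, the medians were 0.19 and -0.06 for collagen (4 and 2 of 16 genes nominally higher), -0.16 and 0.05 for trunk-to-tail timing and 0.12 and -0.34 for Nodal genes, and 0.29 and 0.10 for Notch genes (6 and 3 of 13 nominally higher). They were 0.33 and -0.415 for somite differentiation and 0.08 and -0.555 for neural tube genes. For anterior Hox genes they were -0.08 and 0.11, with 4 and 8 of 12 log2 fold changes positive. Those of presomitic mesoderm genes were -0.02 and -0.473, and those of mitochondrially encoded genes 0.04 and -0.356. For erythroid genes the medians were 1.06 and -0.21, and the summed level in earlier Smchd1matΔ embryos reached 3220 CPM in a single embryo. T had log2 fold changes of -0.24 and 0.29, Cdx4 of -0.16 and 0.46, and Klf1 of 2.78 and -0.69 in Smchd1wt and Smchd1matΔ. The difference itself was tested over all 25 embryos, and 0 of 15490 genes passed the adjusted threshold. At the unadjusted level 328 genes (2.12%) were nominal, 127 (0.82%) in the positive and 201 (1.3%) in the negative direction, T, Cdx4 and Klf1 among them, so a difference between genotypes in this step was not shown for any gene. On counts simulated in the same way, with the same limits, this test recovered 62% of genes whose step differed by 1 and 96% of those that differed by 2 on the log2 scale.

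Whether the next step, from 8 or 9 to 10 or 11 somites, differed from this step was tested over the 21 Smchd1wt embryos. The steps share the embryos with 8 or 9 somites. No gene of 14977 passed the adjusted threshold by edgeR's quasi-likelihood test, and 300 (2%) were nominal, 166 (1.11%) in the positive and 134 (0.895%) in the negative direction. In the 7 embryos with 10 or 11 somites Igfbp5 was at 80.3 ± 15.8, Fbn2 at 92.2 ± 20.03, Fgf15 at 14.4 ± 4.72, Pou5f1 at 7.77 ± 5.2 and Cfc1 at 1.52 ± 0.741 CPM. For Kdr the level there was 143 ± 34.6 CPM, compared with 188 ± 11.7 CPM at 8 or 9 somites.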

How the data were processed

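RNA was sequenced from the tailbuds of single embryos. Per the methods, polyA libraries came from a TruSeq kit of either the unstranded or the stranded version and were sequenced as single-end 75 bp reads, trimmed with Trim Galore 0.4.4, aligned to GRCm38.p6 with HISAT2 2.0.5 and counted per gene in SeqMonk; which kit a library had and whether counting used strand were not given in the sources used here. The authors deposited raw counts per gene for 37 embryos, and a table of log2 RPKM values for Hox genes, which was used only to compare levels between Hox genes. A deposited table of the authors' own genotype comparisons (fold changes and p-values) was not used.

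Of 35591 rows, 49 with a repeated identifier were dropped and 35542 genes kept, with 26 date-like names restored. Groups came from the labels. Genes were filtered with filterByExpr (minimum count 10), scaled by TMM and tested with edgeR 4.0.16 in R 4.3.3 (quasi-likelihood F-test, two-sided, window and sex as terms, Benjamini-Hochberg threshold 0.05). DESeq2 1.42.0 and limma 3.58.1 served as alternatives, and pandas 2.3.3 and numpy 2.4.6 for tables. Alternatives were other size factors, no filter, no sex term, a replicate block, stage as a factor or slope, each sex alone, 7 somites as the earlier group, library total as a covariate and each embryo left out; voom with sample weights and omission of the libraries rich in ribosomal RNA counts were added after seeing the data. The test was tried on simulated counts with 200 changed genes, drawn from genes above a floor of expected counts.

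Named genes were the 5 smallest p-values each way, up to 4 members each way and defining members of each list, and called genes of the other tests. Some genes that the rule selects are not reported here. The gene lists and the genes described were chosen with earlier results of these data known. Replicates of a group differed beyond counting noise (chi-square over genes), so each embryo counted as 1 sample. Replicate numbers were not used to pair embryos in the main fit. In Smchd1wt 11 of 19 same-number pairs had correlated deviations above 0.1. Their median correlation was 0.106, compared with -0.0451 for other pairs, and what the numbers stand for was not tested. P-values measure the spread between these embryos.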

Additional observations from a re-analysis of the deposited data

Results flagged for a closer look

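In 240 sets of values (named genes, marker sums and totals in the 2 windows of Smchd1wt embryos), 18 had a single embryo that stood apart from the rest of its window by Dixon's test at the 95% level, where chance alone flags about 1 set in 20. Replicate 2 at 7 somites, the shallowest library, stood apart in 8 of them. It was the highest earlier embryo for the erythroid sum (1670 CPM, next 243) and for Gata1 (4.60 CPM, next 0.699), Hbb-bh1 (818, next 78.3), Klf1 (2.63, next 0.783) and Sost (5.92, next 3.32). For Axin2 (112 CPM, next 153), Epha1 (59.2, next 80.9) and Nkd2 (8.55, next 10.8) it was the lowest.

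Among the later embryos, replicate 1 at 8 somites was the highest for Col3a1 (105 CPM, next 53.3) and Fst (23.7, next 10.4) and the lowest for Pdk1 (65.4, next 104.5) and Shh (8.31, next 18.9). Replicate 3 at 8 somites was the highest for Gata1 (13.3 CPM, next 4.23). Replicate 3 at 9 somites was the highest for Igfbp5 (96.1 CPM, next 67.8) and the lowest for Lrp11 (24.96, next 29.01). Replicate 1 at 9 somites had the largest total, 80.6 in units of 1e6 counts, with the next at 18.8.

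Among the other earlier embryos, replicate 1 at 6 somites was the highest for Fst (181 CPM, next 49.9) and replicate 1 at 7 somites for Psmg2 (73.3 CPM, next 63.2).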

How the results depend on the processing

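The number of genes that passed the adjusted threshold in Smchd1wt was 0 by edgeR's quasi-likelihood test (1009 at an unadjusted p under 0.05), 48 by DESeq2's Wald test, 2 with no filter on low counts, 14 for a slope on somite number, 28 in female embryos alone and 10 with voom and sample weights. Leaving out single embryos gave 0 to 17. With the replicate number as a block it was 0, with 1077 genes at an unadjusted p under 0.05. At the unadjusted level the count was between 631 (without replicate 3 at 9 somites) and 1549 (without replicate 1 at 8 somites) over single embryos left out.

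In Smchd1matΔ the number was 4. It became 52 by DESeq2's Wald test, 27 with no filter on low counts, 0 with no sex term, 0 without the pair rich in ribosomal RNA counts, 239 with the replicate block and 0 to 16 when single embryos were left out. In Smchd1matΔ 4 of 13 same-number pairs had correlated deviations above 0.1, with a median of -0.00836 (0.00145 for other pairs). Of 11 Smchd1matΔ embryos 5 correlated best with an embryo of their own number, as did 8 of 14 in Smchd1wt. The difference between genotypes and that between steps gave 0 genes under every alternative run.

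For 107 named genes 2733 of 2776 values kept the sign of the reported value. The 43 others include 4 among the 93 nominal genes, all in male embryos alone, with log2 fold changes of -0.0496 for Gdf11, -0.0282 for Cyp26a1, -0.334 for Hbb-bh1 and 0.0922 for Fgfbp3. The cause of these changes was not tested. Posterior Hox genes and erythroid factors had 0 counts in single embryos, where few counts limit the precision.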

Other observations

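Beyond the lists described above, genes of the secreted matrix were on the higher side. This list and the next were drawn up after the values were seen, so their counts are descriptions and carry no test. Over all genes tested, 3.68% were nominally higher and 3.25% nominally lower in Smchd1wt. In Smchd1matΔ these shares were 3.52% and 2.77%. Of 23 genes of the secreted matrix and its modifiers 13 were nominally higher in the later Smchd1wt embryos and none nominally lower, with a median log2 fold change of 0.60. They include Igfbp5, Fbn2, Islr and Postn, which are given above. Sparc of this list was far higher in replicate 1 at 6 somites than in the other earlier embryos, as given above. In Smchd1matΔ embryos 11 of the 23 were nominally higher and none nominally lower, with a median of 0.38.

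Of 22 genes that respond to low oxygen, 8 were nominally higher and none nominally lower in the later Smchd1wt embryos (median 0.17), Pdk1 among them. In Smchd1matΔ embryos 14 were nominally higher and 1 nominally lower (median 0.34).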
